A study of Mus musculus with 8 samples.

Results

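The cytosolic ribosomal protein genes were taken by symbol: names of the form Rpl or Rps followed by a number (with an optional letter), Rpsa, and Rplp0 to Rplp2. The rule found 85 of the 25239 genes listed, 52 of the large (60S) and 33 of the small (40S) subunit, and used no measured value. Of these, 80 had at least 10 reads in at least 1 library (48 large and 32 small). The other 5 were Rpl10l, Rpl3l, Rpl36a, Rpl38 and Rps29, and Rpl10l had 0 reads in every library. The libraries are bulk RNA of microglia (brain macrophages), sorted by CD45 and CD11b from C57BL/6 mice that carry floxed Prmt1, the gene of the arginine methyltransferase PRMT1. The question was how loss of PRMT1 and the demyelinating diet change transcription in these cells.

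There were 5 groups. PRMT1Cx3cr1-KO microglia (fl/fl with cx3r1cre-ert2, a tamoxifen-activated Cre driven by Cx3cr1) were profiled on cuprizone (CPZ, a copper chelator that strips myelin, 0.2% of the diet, labelled 5 weeks) from the CD11c low gate in 1 library, and on normal diet (labelled 11 weeks) in 2 libraries. PRMT1FL microglia (fl/fl, with no Cre in the labels) were profiled on CPZ from the CD11c high gate in 1 library and from the CD11c low gate in 1 library, and on normal diet in 3 libraries. The labels give 4 to 6 weeks as the age at which the diet was fed. The study's methods instead place tamoxifen, given to both genotypes, at about that age and the diet some weeks after it, so the age at the start of CPZ is uncertain. Each CPZ library therefore differed from the normal-diet libraries in diet, in CD11c gate (no gate is named for normal diet) and in the labelled time, and genotype came together with the Cre driver. These cannot be told apart. Whether a library is 1 mouse or a pool is not given, so p-values measure only the spread between these libraries, which may be technical.

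Ribosomal proteins join the ribosomal RNAs to form the small and large subunits of the ribosome, the small one reading the mRNA and the large one joining the amino acids. Their mRNAs begin with an oligopyrimidine tract (the TOP motif), through which mTORC1 signalling sets their translation as a set, so that protein output can change with no change in mRNA. Most of these genes are short, have many introns and have left processed pseudogenes across the genome.

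Libraries held 1579737 to 3519969 reads in genes, the fewest in the PRMT1FL CPZ CD11c high library. Levels are given as RPM, a gene's reads per 1000000 gene-assigned reads of its library. Prmt1 had 29.0 RPM in PRMT1Cx3cr1-KO CPZ CD11c low and 21.9 and 30.1 on PRMT1Cx3cr1-KO normal diet, against 29.8 to 45.5 in the PRMT1FL libraries, and a gene total does not show whether the floxed exons were lost. The 10 microglial markers summed to 4282 to 6270 RPM in every library, and the 8 lymphocyte markers to 0.403 to 7.49. The PRMT1FL CPZ CD11c low library stood apart in markers of other cells: the 8 neutrophil markers summed to 2.04 RPM in PRMT1Cx3cr1-KO CPZ CD11c low and 17.1 in PRMT1FL CPZ CD11c high, against 327 in PRMT1FL CPZ CD11c low, and 92.1 to 221 on normal diet. The 11 endothelial and mural markers summed to 349, 372 and 616 in the same 3 CPZ libraries, and to 158 to 208 on normal diet. The 12 astrocyte markers summed to 354, 335 and 664 and the 10 oligodendrocyte markers to 298, 339 and 646 in these libraries, against 345 to 514 and 334 to 536 on normal diet. The endothelial and mural markers did not move together. In PRMT1FL CPZ CD11c high against PRMT1FL normal diet, Flt1 had a log2 fold of 4.33 and Pecam1 one of -3.04. Of the neutrophil markers 6 were at 0 in PRMT1Cx3cr1-KO CPZ CD11c low and 2 in PRMT1FL CPZ CD11c high, and the part of these cells in the results was not tested. The 9 monocyte and border macrophage markers summed to 134 RPM in PRMT1Cx3cr1-KO CPZ CD11c low, 65.8 in PRMT1FL CPZ CD11c high and 178 in PRMT1FL CPZ CD11c low, against 129 to 251 on normal diet. Itgax, the gene of CD11c, had 124 RPM in PRMT1Cx3cr1-KO CPZ CD11c low, 610.2 in PRMT1FL CPZ CD11c high and 255 in PRMT1FL CPZ CD11c low, against 17.9 to 27.4 on normal diet, so the CD11c low libraries also lay above normal diet.

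Ribosomal protein genes took a small share of the reads in every library. The 85 members held 0.224% of the reads in PRMT1Cx3cr1-KO CPZ CD11c low, 0.302% in PRMT1FL CPZ CD11c high and 0.251% in PRMT1FL CPZ CD11c low, against 0.171% and 0.176% on PRMT1Cx3cr1-KO normal diet and 0.179%, 0.176% and 0.180% on PRMT1FL normal diet. All 3 CPZ libraries lay above all 5 normal-diet libraries, and the genotypes on normal diet overlapped. Relative to the mean of PRMT1FL normal diet the share was 1.26 times in PRMT1Cx3cr1-KO CPZ CD11c low, 1.69 times in PRMT1FL CPZ CD11c high, 1.41 times in PRMT1FL CPZ CD11c low and 0.972 times on PRMT1Cx3cr1-KO normal diet, with a relative SD of 0.0174 over the normal-diet libraries. Large subunit genes had 1.80 to 1.96 times the reads of small subunit genes in the 8 libraries, and the share of each subunit lay above every normal-diet library in all 3 CPZ libraries. In bulk samples a change in the cells sampled and a change of RNA per cell cannot be told apart.

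**Figure D1:**
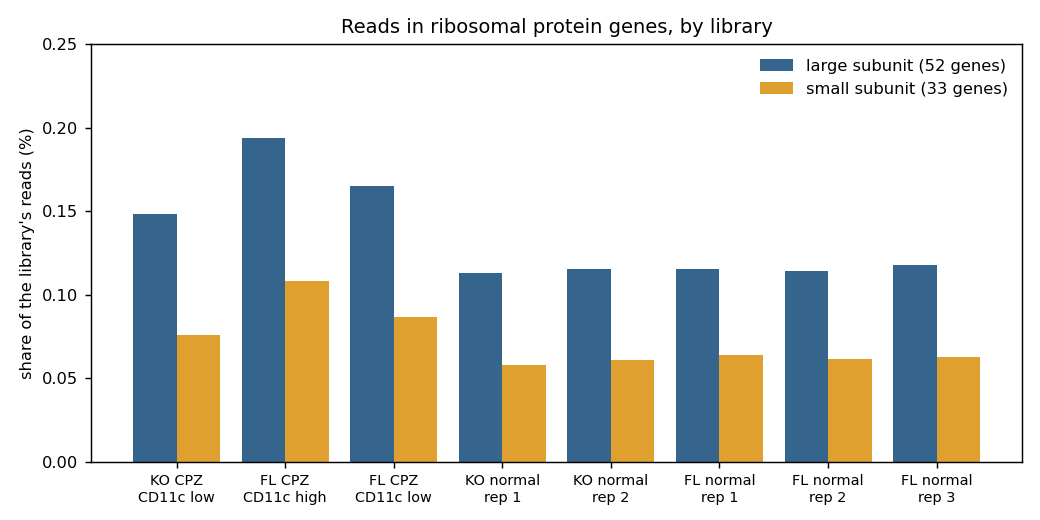
Share of each library's gene-assigned reads (%) in large subunit genes (blue) and small subunit genes (orange), 1 pair of bars per library, with no error bars since each bar is 1 library. Both subunits stand higher in the 3 CPZ libraries, and the large subunit reaches 0.194% in PRMT1FL CPZ CD11c high.

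The structure of these genes bears on how many of their reads could be counted. The study's reads were single-end, 76 bases long, aligned with Bowtie2, which does not split a read over an intron, and stripped of duplicates. In the GENCODE M21 annotation (GRCm38), all 85 members were found by symbol and position, with 410 exons, of which 74 were shorter than a read. A median of 54.9% of the bases of a member's transcript were start positions at which a whole read stays within 1 exon (range 15.9% to 94.2%). Of these starts a median of 71.9% gave a read that occurs in no annotated transcript of another gene. At least 1 start was shared with another gene in 78 members, 75 had an annotated pseudogene of at least 90% identity over 200 bases (a median of 8, up to 91), and Rpl10, Rpl23a, Rpl36a and Rpl9 had no unshared start. Counts of such members are uncertain, since a read from a copy can be assigned to either place or dropped.

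Levels between members were compared per base of the deposited gene length, as reads per base averaged over the 8 libraries. Rplp1, an acidic stalk protein that helps recruit elongation factors, was densest at 0.306 reads per base, and Rpl8 (0.298), Rpl4 (0.269) and Rps15 (0.266) were also among the densest. No member passed 0.5 reads per base in any library, whereas the densest genes reached 0.813 to 0.919, near the ceiling of 1 that duplicate removal sets. The sparsest of the 80 were Rpl39l (0.005), Rpl24 (0.00842), Rpl23a (0.00886), Rpl35 (0.00899) and Rps16 (0.00908). The median member had 0.0559 reads per base, and the median large subunit member had 1.41 times the density of the median small subunit member. Over the 80 members, RPM and the number of within-exon starts had a Spearman correlation of 0.48, and RPM and the number of pseudogenes of -0.184, both over points that share gene length.

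On CPZ the PRMT1FL microglia of the CD11c low gate had more reads for most ribosomal protein genes than PRMT1FL microglia on normal diet. Of the 68 members that passed the filter (mean of at least 10 scaled reads), 6 rose and none fell: Rpl31, Rpl23, Rpl27a, Rpl15, Rps6 and Rpl22. Here and below a gene is called at a limma adjusted p (Benjamini-Hochberg over all genes) under 0.05 with an absolute log2 fold over 1, folds being on the log2(scaled reads + 1) scale. Each CPZ group is 1 library, so the spread in its tests comes from the normal-diet libraries. The lone CPZ library is assumed to vary like them. Over all 11395 genes tested 9.33% rose and 2.95% fell by this rule, so 6 of 68 is close to the background. The members' folds were nevertheless mostly above 0 (63 of 68, against 56.4% of all genes), with a median of 0.47 against 0.08 for all genes. Genes shorter than 1000 bases outside the list had a median of 0.64 and mitochondrial ribosomal protein genes one of 0.49, so that the members' median lay below that of other short genes.

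Rpl23, a large subunit protein, had 51.3 RPM in PRMT1FL CPZ CD11c low, against 20.9, 17.9 and 21.1 on PRMT1FL normal diet (log2 fold 1.35 ± 0.25 SE, limma adjusted p = 0.00250). Rpl27a had 62.8 RPM, against 20.1, 25.4 and 31.8 (log2 fold 1.30 ± 0.26, limma adjusted p = 0.00440). For both genes the CPZ library stood well clear of the 3 normal-diet libraries. Rpl22, which in mouse T cells is also known for a role in development, had 139 RPM, against a tight 66.8, 69.1 and 67.5 (log2 fold 1.03 ± 0.13, limma adjusted p = 0.000286). Rpl15 had 49.9 RPM, against 22.5, 18.3 and 23.8 on normal diet (log2 fold 1.21, limma adjusted p = 0.00523). The thinner 2 calls were Rpl31, with 13.3 RPM in the CPZ library, against 2.82, 3.18 and 4.89 (log2 fold 1.81 ± 0.53, limma adjusted p = 0.0269), and Rps6. Rps6, the small subunit protein phosphorylated by S6 kinase, had 23.6 RPM, against 8.85, 13.5 and 9.78 (log2 fold 1.14 ± 0.37, limma adjusted p = 0.0390). None of these groups overlapped.

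Across the 80 members, 64 were higher in the PRMT1FL CPZ CD11c low library than in every PRMT1FL normal-diet library and none was lower than all 3, where 47.5% of all genes with 10 reads were higher and 30.1% lower. With no threshold on the fold, 15 members passed the adjusted p, all higher (15.8% of all genes were higher and 11.7% lower). This count was 19 without PRMT1FL normal-diet replicate 1, 7 without replicate 2 and 9 without replicate 3, and it was 9 with median-of-ratios scaling, 8 with TMM and 4 with DESeq2 or with no filter. The lowest folds were small: Rpl35a -0.32, Rpl10 -0.11, Rps12 -0.05 and Rplp1 -0.02. The acidic stalk proteins had folds near 0, Rplp1 having 47.6 RPM, against 51.9, 50.0 and 43.1, and Rplp2 17.0, against 17.7, 15.5 and 17.1. Their normal-diet and CPZ values overlapped. Large and small subunit members had medians of 0.47 and 0.46. This library had the highest sums of neutrophil, endothelial, astrocyte and oligodendrocyte markers, and their part in the result was not tested. The count of 6 was 2 with no filter on low values, 3 with DESeq2 and 5 to 8 when 1 PRMT1FL normal-diet library was left out.

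In the CD11c high gate members of both subunits were higher than on normal diet. Of 64 members that passed the filter, 19 rose and none fell in PRMT1FL CPZ CD11c high relative to PRMT1FL normal diet, where 7.0% of the 10922 genes tested rose and 9.30% fell. Of the 19, 11 were large and 8 small subunit members, and the medians were 0.75 and 0.83. The members' median was 0.82, while all genes had a median of -0.16, short genes one of 0.31 and mitochondrial ribosomal protein genes one of -0.07. Folds were above 0 in 55 of 64 members, against 38.8% of all genes. By adjusted p alone 34 members were higher (15.1% of all genes) and none was lower (25.5%). Without PRMT1FL normal-diet replicate 1 these counts were 39 and 2, and over the other settings run 23 to 41 members were higher. Markers of other cells moved in both directions in this library. The 9 monocyte and border macrophage markers summed to 65.8 RPM, against 129, 218 and 216 on PRMT1FL normal diet. Of these, Mrc1, F13a1, Cd163 and Lyve1 were called lower. Neutrophil markers summed to 17.1, against 221, 133 and 131. Endothelial and mural markers summed to 372, against 158, 180 and 185. Among them Flt1 (log2 fold 4.33), Vtn (1.46) and Rgs5 (1.42) were higher, and Pecam1 (-3.04) and Cdh5 (-1.05) lower. The part of these cells in the result was not tested.

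Rps27l, a paralog of Rps27 known as a p53 target, had the largest fold: 22.2 RPM in PRMT1FL CPZ CD11c high, against 5.63, 7.94 and 9.17 on PRMT1FL normal diet (log2 fold 1.52 ± 0.40 SE, limma adjusted p = 0.00904). Rpsa, the small subunit protein also named laminin receptor, had 26.6 RPM, against 9.26, 9.93 and 10.7 (log2 fold 1.38 ± 0.33, limma adjusted p = 0.00542). Rpl32 had 86.7 RPM, against 33.8, 33.4 and 32.1 (log2 fold 1.38 ± 0.18, limma adjusted p = 9.3e-05). In all 3 genes the CD11c high library had over 2 times every normal-diet library. Rplp0, the stalk base, had 164 RPM, against 78.5, 78.2 and 69.7 (log2 fold 1.12 ± 0.14, limma adjusted p = 4.8e-05). Its normal-diet libraries lay close together, and the CD11c high library stood clear of them.

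The other calls had log2 folds of 1.01 to 1.19, among them Rpl15 (1.19), Rpl23 (1.18), Rpl21 (1.13), Rpl27a (1.12), Rps14 (1.11), Rps26 (1.11), Rpl14 (1.09), Rps18 (1.06), Rpl41 (1.05), Rpl22 (1.04), Rpl6 (1.01) and Rpl39 (1.01). Rpl39 lines the exit tunnel of the large subunit and had 22.8 RPM, against 10.5, 12.7 and 10.4. Rpl31 had a larger fold of 1.33 that missed the threshold (limma adjusted p = 0.0565), with 9.50 RPM, against 2.82, 3.18 and 4.89. Many members lay near the fold threshold: the count of 19 was 12 with no filter on low values (11 higher and 1 lower), 27 with edgeR and 15 to 21 when 1 normal-diet library was left out. Without PRMT1FL normal-diet replicate 1 the 21 calls were 20 higher and 1 lower.

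**Figure D2:**
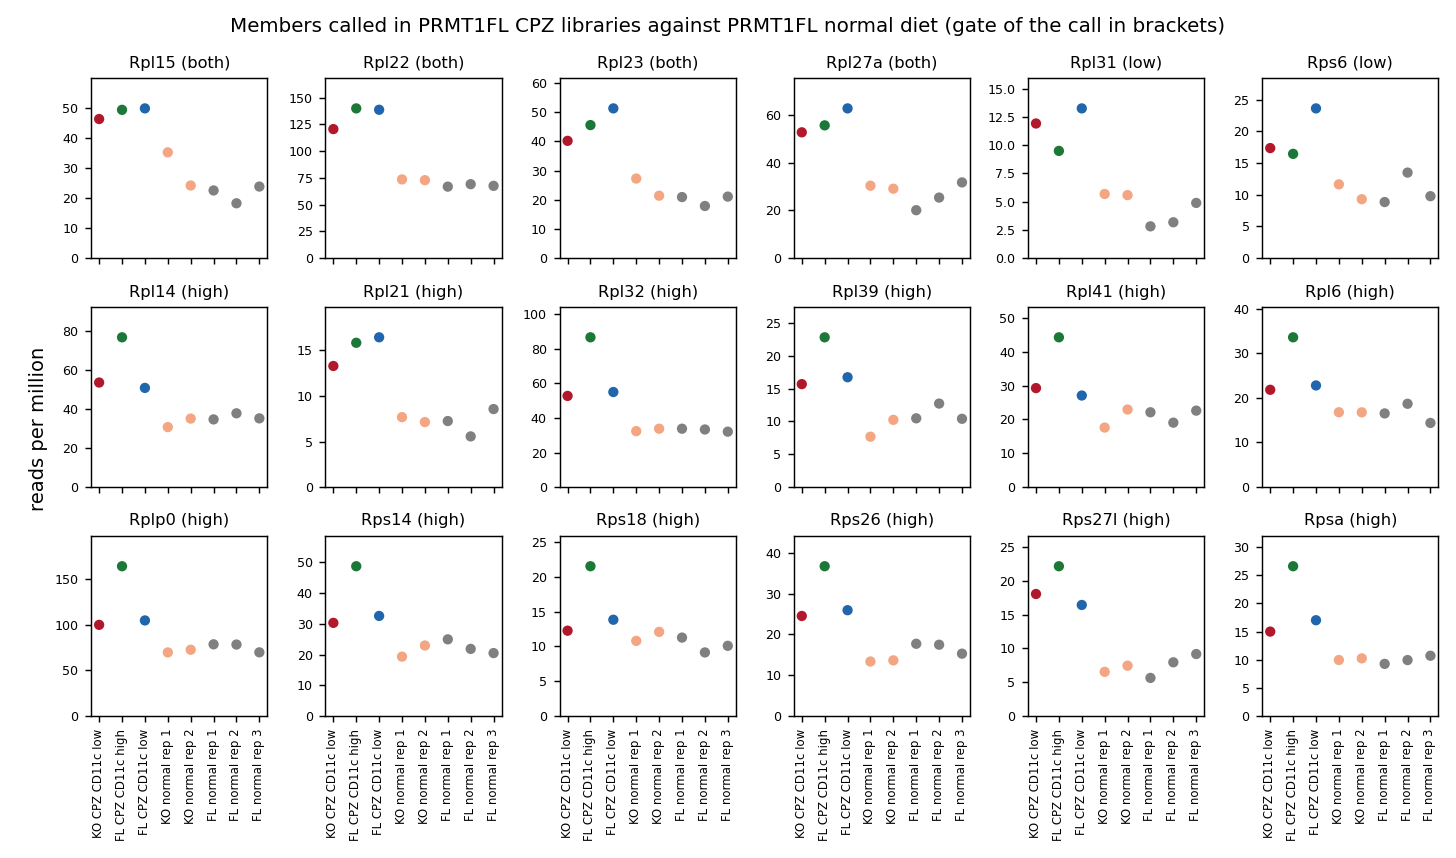
RPM (vertical axis, from 0) of 18 of the 21 members called in PRMT1FL CPZ CD11c low, CD11c high or both against PRMT1FL normal diet, 1 point per library (red and pale orange PRMT1Cx3cr1-KO on CPZ and normal diet, green and blue PRMT1FL CPZ CD11c high and low, grey PRMT1FL normal diet). Rpl15, Rpl22, Rpl23 and Rpl27a were called in both gates, and Rpl22 has 139.9 and 139 RPM in the CD11c high and low libraries.

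A few members went against the list in the CD11c high library. It held the fewest reads (1579737 in genes), so the low RPM values below rest on few reads. Rps12 had 7.60 RPM there, against 13.3, 12.3 and 18.95 on PRMT1FL normal diet (log2 fold -0.91 ± 0.36 SE, limma adjusted p = 0.0644). Rps27a, made as a fusion to ubiquitin, had 3.80 RPM, against 5.23, 8.74 and 7.64 (log2 fold -0.83, limma adjusted p = 0.181). Rpl12 had 8.23 RPM, against 12.5, 15.5 and 12.8 (log2 fold -0.69, limma adjusted p = 0.129). All 3 were below every normal-diet library and none passed the test. Rpl5, which with Rpl11 and 5S RNA forms the particle that binds the p53 regulator MDM2, had 18.99 RPM, against 19.7, 26.2 and 27.5, and Rps27 had 6.33, against 10.1, 6.75 and 7.95. Of the 80 members 59 were above all 3 PRMT1FL normal-diet libraries (31.9% of all genes) and 12 below all 3 (47.0% of all genes).

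The sequence at the transcription start was examined for the pyrimidine tract, which the symbol rule did not use. RefSeq promoters (GRCm38.p6) matched 64 of the 85 members. A run of at least 8 C or T bases that overlaps the 15 bases on either side of the start, read on the gene's strand, was present in 30 of 64 members (46.9%) and in 17.6% of all 32851 promoters. Such a run can end before the start (Rpl39, 9 bases from position -21) or begin after it (Rpl11, 17 bases from position 13). These shares are therefore not shares of mRNAs that begin with the tract. Each window below holds 15 bases before and 15 from the start, with the longest run of C and T in capitals (the first where runs tie). A run that reaches past the window is printed cut: that of Rpl22 has 4 bases and that of Rpl27a 20. Rpl27a and Rpl15 were called higher in both PRMT1FL CPZ gates, and Rps6 in CD11c low only. Rpl22 and Rpl23 were called in both gates with no such run at the annotated start. Rpl12 and Rps27 were among the lowest members in the CD11c high gate. In PRMT1FL CPZ CD11c low these 2 genes were above every PRMT1FL normal-diet library, at 18.4 and 13.8 RPM.
Rpl27a: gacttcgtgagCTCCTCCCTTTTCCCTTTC
Rpl15: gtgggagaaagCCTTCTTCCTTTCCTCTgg
Rps6: aagcggaagtcgggCCTCTTTTTCgtgacg
Rpl22: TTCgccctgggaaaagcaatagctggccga
Rpl23: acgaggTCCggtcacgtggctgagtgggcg
Rpl12: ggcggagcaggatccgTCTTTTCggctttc
Rps27: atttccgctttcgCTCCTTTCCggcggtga
The windows lie at chr7:109519180-109519209 (plus strand), chr14:18270972-18271001 (minus strand), chr4:86857353-86857382 (minus strand), chr4:152325711-152325740 (plus strand), chr11:97782425-97782454 (minus strand), chr2:32961697-32961726 (plus strand) and chr3:90213634-90213663 (minus strand), in the order printed. Among members with a promoter, the run was found in 4 of 6 called in CD11c low (66.7%) and in 22 of 43 tested and not called (51.2%). In CD11c high it was found in 7 of 13 called (53.8%) and in 17 of 32 not called (53.1%). No test was run on these shares. These are matches of letters and not mapped start sites.

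Comparing the gates under CPZ, no ribosomal protein gene was called between PRMT1FL CPZ CD11c high and CD11c low by limma (0 of 68, with 19 at an unadjusted p under 0.05), where 2.70% of 11292 genes were called (0.106% higher and 2.59% lower). Each gate is 1 library, and the test takes its spread from the normal-diet libraries and assumes that the lone libraries vary like them. The count was 3 with edgeR, 0 with DESeq2, and 4 with either median-of-ratios or TMM scaling. The choice of scale matters here: median-of-ratios scaling raised the median of all genes by 0.23, and relative to all genes the members' median was higher by 0.46 in CD11c high (0.23 against -0.23), with 42 of 68 folds above 0 (28.5% of all genes). Other short genes (median -0.39) and mitochondrial ribosomal protein genes (-0.57) lay lower, while genes of 0.5 reads per base or more lay higher (0.53).

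By adjusted p alone 3 members were higher in CD11c high, where 1.46% of all genes were. The count was 5 without PRMT1FL normal-diet replicate 1 and 1 without any other normal-diet library, 1 with the correction for occupied read starts, 2 with DESeq2, 10 with edgeR or median-of-ratios scaling and 12 with TMM, so the 3 genes are given as values. Rplp1 had 91.8 RPM in CD11c high, against 47.6 in CD11c low (log2 fold 0.94 ± 0.21 SE, limma adjusted p = 0.0286). Rplp0 had 164, against 105 (log2 fold 0.65, limma adjusted p = 0.0394), and Rpl4 231, against 152 (log2 fold 0.60, limma adjusted p = 0.0488). Rplp2, the other stalk protein, was higher too at 24.7, against 17.0, without passing. The lowest members had few reads: Rps13 had 2 reads in CD11c high, against 18 in CD11c low, and Rpl11 had 3, against 23, too few for a fold to be given. Rpl12 (-1.13, limma adjusted p = 0.0898), Rps27 (-1.09) and Rps27a (-1.07) were the next lowest. Large subunit members had a median of 0.05 and small subunit members one of 0.39, a difference that no test was run on.

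**Figure D3:**
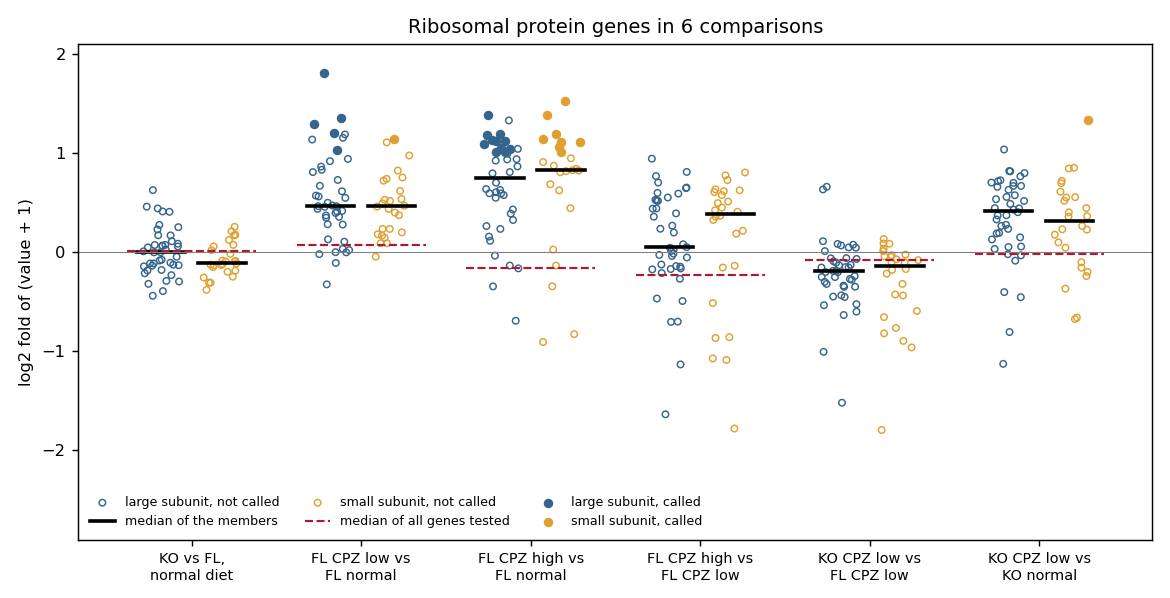
Log2 folds of (scaled reads + 1), 1 circle per tested member, for large (blue) and small (orange) subunit members in 6 comparisons, filled where called, with black bars for the median of each subunit's members and a dashed red line for the median of all genes tested. The medians lie above that line in the CPZ against normal comparisons, over all members by 0.39 in CD11c low and 0.98 in CD11c high of PRMT1FL.

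PRMT1Cx3cr1-KO microglia of the CD11c low gate on CPZ were set against PRMT1Cx3cr1-KO microglia on normal diet. Of 68 members tested 1 rose, Rps27l, and none fell, where 5.01% of 11292 genes rose and 3.44% fell. By adjusted p alone 11 members were higher (9.96% of all genes), but 3 without PRMT1Cx3cr1-KO normal-diet replicate 1, 5 without replicate 2, 3 with no filter and 1 with DESeq2. Rps27l had 18.1 RPM on CPZ, against 6.53 and 7.44 on normal diet (log2 fold 1.33 ± 0.39 SE, limma adjusted p = 0.0385). This call was lost with no filter on low values, with DESeq2, and without PRMT1Cx3cr1-KO normal-diet replicate 1, replicate 2 or PRMT1FL normal-diet replicate 2. Rpl31 was next at 11.9 RPM, against 5.68 and 5.58 (log2 fold 1.04, limma adjusted p = 0.154), followed by Rps20 (0.85), Rps26 (0.84) and Rpl27a (0.82). Folds were above 0 in 54 of 68 members, against 47.9% of all genes, with a median of 0.37 against -0.02 for all genes and 0.37 for other short genes.

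Of the 80 members 56 were above both PRMT1Cx3cr1-KO normal-diet libraries (39.4% of all genes) and 16 below both (44.1% of all genes). The lowest was Rpl9, with 5.11 RPM on CPZ, against 10.5 and 12.7 (log2 fold -1.13 ± 0.46, limma adjusted p = 0.112), 1 of the members with no unshared read start. Rps27, Rps12 and Rpl10 were also among the lowest, with log2 folds of -0.67, -0.66 and -0.45. Large and small subunit members had medians of 0.42 and 0.31. Neutrophil markers summed to 2.04 RPM in the CPZ library, against 92.1 and 130 in the normal-diet libraries, and their part was not tested.

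Genotype made no called difference in this gene set. On normal diet 0 of 67 members were called between PRMT1Cx3cr1-KO and PRMT1FL by limma, edgeR or DESeq2, with 0 at an unadjusted limma p under 0.05, and 0% of the 11086 genes tested were called. Log2 folds ran from -0.44 (Rpl37a) to 0.63 (Rpl31) with a median of -0.08, against 0.01 for all genes, and 29 of 67 were above 0 (53.0% of all genes). Rpl31 had 5.68 and 5.58 RPM in PRMT1Cx3cr1-KO, against 2.82, 3.18 and 4.89 in PRMT1FL (limma adjusted p = 0.677), and the groups did not overlap. Rpl5 had 48.0 and 23.3, against 19.7, 26.2 and 27.5, so that its log2 fold of 0.46 came from PRMT1Cx3cr1-KO replicate 1. Rpl15 (0.44), Rpl37 (0.41) and Rpl36 (0.41) were the other high members, and Rpl17 (-0.39), Rps27 (-0.38), Rpl39 (-0.32) and Rps26 (-0.31) the other low ones. In all, 7 of 80 members were above and 14 below every PRMT1FL library in both PRMT1Cx3cr1-KO libraries, where 14.3% and 11.1% of all genes were. Small subunit members had a median of -0.10 and large subunit members one of 0.00. The median over all members was 0.02 without PRMT1Cx3cr1-KO replicate 1.

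In the CD11c low gate on CPZ, 0 of 68 members were called between PRMT1Cx3cr1-KO and PRMT1FL by limma (4 at an unadjusted p under 0.05), edgeR or DESeq2, where 2.52% of all genes were called by limma. Each group is 1 library. Most folds lay slightly below 0 (14 of 68 above, against 41.4% of all genes) with a median of -0.18, against -0.08 for all genes and -0.38 for other short genes. The lowest was Rps27 at 3.75 RPM in PRMT1Cx3cr1-KO, against 13.8 in PRMT1FL (log2 fold -1.79 ± 0.56 SE, limma adjusted p = 0.0900). Rpl9 had 5.11, against 15.3 (log2 fold -1.52, limma adjusted p = 0.123). Rpl17 and Rps19 had log2 folds of -1.005 and -0.89, and at the other end Rpl5 and Rpl35a had 0.66 and 0.63. The PRMT1FL library of this pair is the one with the high neutrophil and endothelial markers.

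Whether the CPZ difference depended on genotype was tested as an interaction in the CD11c low gate, the PRMT1Cx3cr1-KO difference minus the PRMT1FL one. No member passed (0 of 68 by limma, edgeR and DESeq2, with 3 at an unadjusted limma p under 0.05), where 1.14% of all genes did by limma. Rpl9 (log2 difference -1.58 ± 0.63 SE, limma adjusted p = 0.239), Rps27 (-1.41), Rps19 (-1.13) and Rpl36 (-1.01) were among the lowest values. Rpl37a (0.48), Rpl35a (0.38), Rps20 (0.33), Rpl7 (0.30) and Rplp1 (0.30) had the highest. The median was -0.20, and 23 of 68 members were above 0 (42.0% of all genes). Since both this comparison and those above use the same PRMT1FL CPZ CD11c low library, their values are not independent.

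The members' folds were set beside how countable each gene was. In CD11c high against PRMT1FL normal diet, 38 members with at least 70% of their within-exon starts unshared had a median log2 fold of 0.95 and 16 calls, and 26 members under 70% had a median of 0.59 and 3 calls. In CD11c low against PRMT1FL normal diet the medians were 0.52 (39 members, 5 calls) and 0.44 (29 members, 1 call). Members with at least 20 RPM had a median of 0.87 in CD11c high and 0.44 in CD11c low, and those with fewer reads 0.60 and 0.57. Rpl12 and Rps27a had 2 of the 3 lowest folds in CD11c high with 81.4% and 100% of their starts unshared. Both had low levels in that library (8.23 and 3.80 RPM), and the part of sharing in the folds was not tested. No test was run on these splits.

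**Figure D4:**
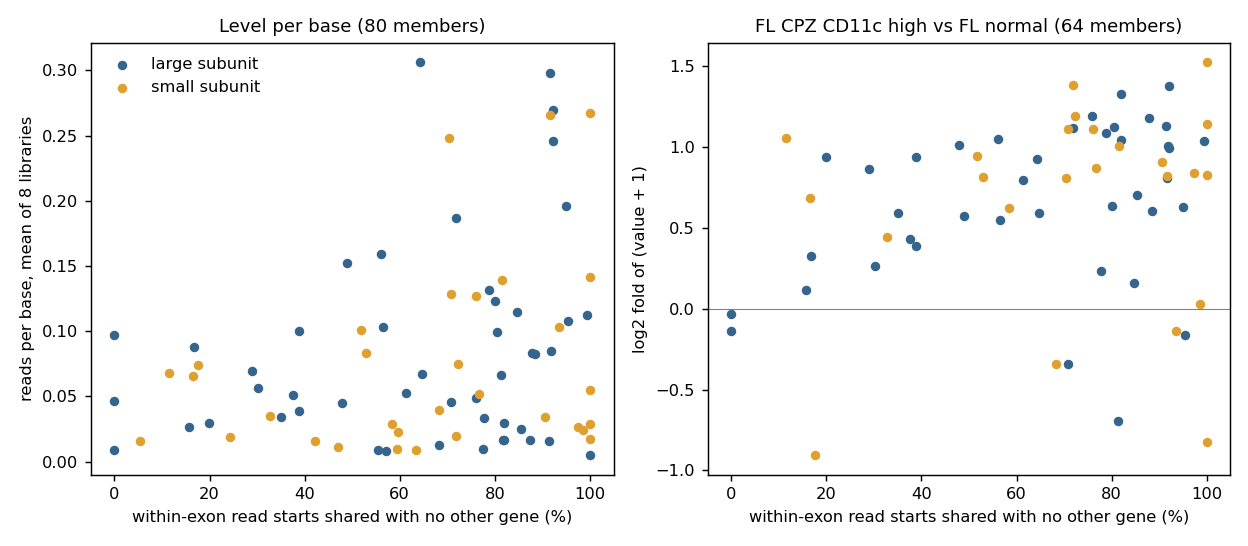
For each member, the percent of within-exon 76-base read starts found in no other gene's transcripts (horizontal axis, %) against reads per base averaged over 8 libraries (left, 80 members) and against the log2 fold of PRMT1FL CPZ CD11c high over PRMT1FL normal diet (right, 64 members), blue for large and orange for small subunit. Most of the largest folds belong to members above 70%, and Rps12, Rps27a and Rpl12 are lowest at -0.91, -0.83 and -0.69.

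Paralogs and their partners differed. Rps27l was called in CD11c high and in PRMT1Cx3cr1-KO CPZ CD11c low, while Rps27 had 3.75, 6.33 and 13.8 RPM in PRMT1Cx3cr1-KO CPZ CD11c low and in the CD11c high and low libraries of PRMT1FL CPZ, against 4.55 and 8.37 on PRMT1Cx3cr1-KO normal diet and 10.1, 6.75 and 7.95 on PRMT1FL normal diet. Rpl22l1, the paralog of Rpl22, had 16.5 and 19.9 RPM in the CD11c high and low libraries of PRMT1FL, against 11.7, 8.34 and 12.8 on normal diet, and was not called. Rpl7l1, a nucleolar relative of Rpl7, hardly varied, with 91.3, 89.3 and 100.0 RPM in the 3 CPZ libraries, against 96.3 and 97.4 and 99.0, 101 and 99.6 on normal diet. Rpl39l had 3.80 and 4.90 RPM in PRMT1FL CPZ CD11c high and low, against 1.21, 0.397 and 0.306 on PRMT1FL normal diet, with too few reads to enter the test. Rpl3l and Rpl10l, whose expression is known mainly from muscle and testis, were at or near 0.

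In the 40S decoding region, Rps3 had 110.0, 144 and 112 RPM in PRMT1Cx3cr1-KO CPZ CD11c low and in the CD11c high and low libraries of PRMT1FL CPZ, against 70.2 and 80.0 on PRMT1Cx3cr1-KO normal diet and 86.5, 79.4 and 77.9 on PRMT1FL normal diet. Its log2 fold over PRMT1FL normal diet was 0.83 in CD11c high (limma adjusted p = 0.000386), under the fold threshold. Rps2 had log2 folds of 0.69 in CD11c high and 0.82 in CD11c low, and Rps23 had too few reads to be tested. Of the 6 exit tunnel proteins 4 were tested (Rpl4, Rpl17, Rpl26 and Rpl39), all above 0 in both gates against PRMT1FL normal diet, and Rpl39 was called in CD11c high.

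Ribosomal proteins that the symbol rule leaves out were measured beside the list. Rack1, the small subunit scaffold, rose in CD11c high to 218 RPM, against 106, 105 and 103 on PRMT1FL normal diet (log2 fold 1.05 ± 0.12 SE, limma adjusted p = 2.5e-05). Fau, the precursor of a small subunit protein, had 59.9, 93.7 and 57.9 RPM in PRMT1Cx3cr1-KO CPZ CD11c low and in the CD11c high and low libraries of PRMT1FL CPZ, against 39.8 to 56.4 on normal diet. Rpl36al had 14.0, 11.4 and 15.3 RPM in the same libraries, against 6.35 to 7.64 on normal diet, and was not called in CD11c high.

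Other parts of the translation machinery were counted in the same comparisons. Over all genes tested, 9.33% rose in PRMT1FL CPZ CD11c low and 7.0% in CD11c high. In PRMT1Cx3cr1-KO CPZ CD11c low 5.01% rose. Of 37 translation factors, 2 rose in PRMT1FL CPZ CD11c low (Eif3k 1.05 and Eif3h 1.00 on the log2 scale) and 4 in CD11c high (Pabpc1 1.28, Eef1b2 1.15, Eif4b 1.07 and Eif3f 1.06), with none called in PRMT1Cx3cr1-KO CPZ CD11c low against its normal diet. Their medians were 0.40, 0.25 and 0.30. Of 35 ribosome biogenesis genes (34 tested in CD11c high), 1 rose in CD11c low (Nhp2, 1.50) and none in CD11c high. In PRMT1Cx3cr1-KO CPZ CD11c low 1 rose (Nop10, 1.16). The median of the biogenesis genes in CD11c high was -0.14. The 10 other TOP mRNAs gave 2 calls in CD11c low (Vim 2.84 and Snhg8 1.13) and 3 in CD11c high (Vim 3.24, Npm1 1.16 and Nap1l1 1.05). In PRMT1Cx3cr1-KO 9 of them were tested, and Vim also rose (2.51). Vim, an intermediate filament gene, is also a marker of activated and mural cells. None of the 18 growth control genes tested was called in these 3 comparisons, and cell cycle genes gave 15 calls of 19 tested, 8 of 15 and 17 of 21, all higher.

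The genes most like the list over all libraries were sought by Pearson correlation of log2 values with the mean log2 value of 68 members, among 9600 other genes with a mean of at least 30 scaled reads. They were Anp32b (r = 0.996), Psmb1 (0.996), Mapkapk2 (0.994), Fam174a (0.994) and Nsa2 (0.9925), over 8 libraries of 5 groups that share the CPZ against normal difference. Anp32b had 42.9, 65.2 and 57.9 RPM in PRMT1Cx3cr1-KO CPZ CD11c low and in the CD11c high and low libraries of PRMT1FL CPZ, against 29.6 and 31.0 on PRMT1Cx3cr1-KO normal diet and 28.6, 32.6 and 32.4 on PRMT1FL normal diet. Among the CPZ libraries, PRMT1FL CPZ CD11c high was highest and PRMT1Cx3cr1-KO CPZ CD11c low lowest, as in the members' share of reads. Anp32b was picked for its likeness over these same libraries, so this order adds nothing to the correlation.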

How the data were processed

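RNA-seq of sorted microglia was analysed in 8 libraries of 5 groups. Per the study's methods and the labels, single-end reads were aligned with Bowtie2, duplicates were removed with SAMtools 0.1.19, and genes were quantified with HOMER and tested with DESeq2. The genome is named as hg19 in the methods, while the deposited coordinates are those of mouse GRCm38. The strand setting of the counting is not given in the sources used here. The authors deposited 6 pairwise tables whose values are a signal, reads scaled to a common total within each table. Whole reads were recovered for 100% of the values (tolerance 0.1 of a read). Columns of fold changes and p-values by the authors were not used.

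The members and the gene lists were chosen with earlier results of these data known. Genes named are the called members, the 5 highest and 5 lowest folds of a comparison, the densest and sparsest members, the role lists, ribosomal proteins outside the rule, up to 4 called genes of each other list, and the 5 genes most like the members. A few genes that this rule names are not reported here. Other genes named were chosen after their values were seen. The 3 comparisons with PRMT1FL normal diet were tested on their own tables, and the others in 1 fit of 8 libraries over 25154 genes (84 genes whose reads differed among tables were left out). limma 3.58.1 (R 4.3.3) was run on log2(value + 1) of genes whose mean was 10 or more, with Benjamini-Hochberg adjustment over all genes. edgeR 4.0.16 and DESeq2 1.42.0 on recovered reads, other scalings, filters, pseudocounts, a read-start correction, the replicate block and leaving out libraries were the alternatives. All fits were tested on simulated data. Read starts and copies came from GENCODE M21 and BLAST 2.17.0, and promoters from RefSeq GRCm38.p6.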

Additional observations from a re-analysis of the deposited data

How the results depend on the processing

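The median log2 fold of the members kept its sign under every alternative run except for PRMT1Cx3cr1-KO against PRMT1FL on normal diet. That median was -0.08, it was -0.030 with the replicate block, and it ranged from -0.087 to 0.022 when 1 library was left out, 0.022 being the value without PRMT1Cx3cr1-KO replicate 1. Deviations of same-numbered libraries had correlations of 0.0686 and -0.00265. The 2 PRMT1Cx3cr1-KO libraries deviate as mirror images of each other, so this cannot decide whether the numbers pair libraries. For PRMT1FL CPZ CD11c low against normal diet the median of 0.47 became 0.36 with median-of-ratios scaling, 0.35 with TMM, 0.50 with the read-start correction, 0.41 with edgeR and 0.40 with DESeq2, and the 6 calls became 2 with no filter and 3 with DESeq2. They ranged from 5 to 8 with 1 library left out. For CD11c high the median of 0.82 became 0.96, 0.90, 0.86, 0.97 and 0.99 under the same 5 settings, 0.78 with a pseudocount of 5 and 0.69 with no filter, where 12 members were called in place of 19.

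Between the gates the median of 0.23 became 0.48 with median-of-ratios and with TMM scaling, 0.015 with no filter, 0.35 with a mean of at least 30, 0.26 with the correction, 0.44 with edgeR and 0.47 with DESeq2. The 0 calls became 4, 4, 1 and 3 with median-of-ratios, TMM, no filter and edgeR. For PRMT1Cx3cr1-KO against PRMT1FL under CPZ the median of -0.18 became -0.071, -0.037, -0.25, -0.14, -0.11 and -0.10 with median-of-ratios, TMM, no filter, the stricter filter, edgeR and DESeq2. For PRMT1Cx3cr1-KO CPZ against its normal diet the median of 0.37 became 0.29 with no filter and 0.41 with the correction, and ranged from 0.33 to 0.41 with 1 library left out. Its single call became 0 with no filter and with DESeq2 and ranged from 0 to 1 with 1 library left out. The interaction median of -0.20 became -0.073, -0.047, -0.29, -0.088, -0.18, -0.088 and -0.10 with median-of-ratios, TMM, no filter, the stricter filter, the correction, edgeR and DESeq2, and ranged from -0.26 to -0.15. The cause of these differences was not tested.

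The share relative to PRMT1FL normal diet of 1.41 in CD11c low became 1.38 without the 100 most read genes and 1.45 with the correction, 1.69 in CD11c high became 1.76 and 1.26 in PRMT1Cx3cr1-KO CD11c low became 1.29 with the correction. Leaving out each PRMT1FL normal-diet library, an alternative chosen after seeing the data, gave 1.40 to 1.42 for CD11c low, 1.68 to 1.70 for CD11c high, 1.25 to 1.26 for PRMT1Cx3cr1-KO CD11c low and 0.965 to 0.978 for PRMT1Cx3cr1-KO normal diet. The median of 0.0559 reads per base was 0.112 per within-exon start. The CD11c high library has the fewest reads, and with 1 library for each CPZ group no spread within those groups could be measured.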
